A study of Mus musculus with 21 samples.

Results

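The genes described here are 10 neighbours of Pax6 on mouse chromosome 2, namely Elp4, Immp1l, Rcn1, Mpped2, Depdc7, Ambra1, Gm13889, Aqr, Eif2ak4 and Scg5, out of 18193 genes named by 1 or more probe sets of the array. They were listed because mutant and littermate arrays had differed near Pax6 in earlier results of these data, so their changes are given as a description, without p-values. All 21 probe sets annotated to the 10 genes were read. Of these, 15 passed the filter on low values, with at least 1 for each gene, and 6 lay near background. Passing is no evidence of a change. A probe set is a group of short oligonucleotides that reports 1 stretch of a transcript. The sets of a gene are shown side by side because a change in transcript amount can appear in all of them. A sequence variant under the oligonucleotides can appear in a single set. Sets near background can miss a change and partial calls are common on this array, so a call in 1 set alone is not read as a variant.

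Expression was measured on 21 Affymetrix arrays, 1 per sample, from total RNA of the rostral part of the cerebral cortex, taken from mice at embryonic day 14. Pax6 Sey (Small-eye) mutants (4 arrays) and their wild-type littermates (3 arrays) were C57BL/6J x DBA/2J (B6D2F1). Pax6 Leca4 mutants (3 arrays) and their wild-type littermates (4 arrays), and Pax6 Leca2 mutants (4 arrays) and theirs (3 arrays), were 129 S6. Whether the mutants were homozygous is not given in the sources used here, and no embryo was treated. The arrays of a group are called biological replicates in the labels, and whether they came from different litters is not stated. Values are log2 RMA expression values (RMA is a background correction, normalization and summary over the oligonucleotides of a set).

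Genes that lie close together on a chromosome are inherited together. In a mutant line bred onto another strain, the stretch around the selected mutation can keep the DNA of the strain in which the mutation arose, and genes in that stretch can differ between mutants and littermates in sequence as well as in expression. Pax6 encodes a transcription factor that acts in the progenitors of the cortex, and it has distant enhancers in its downstream flank, some of them inside introns of Elp4. The 3' ends of Pax6 and Elp4 gene models overlap in the RefSeq table of GRCm38.p6. Deletions of the matching human region, on the short arm of chromosome 11, remove PAX6 together with neighbours of it.

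In that table the members were ordered, from the side before Pax6 to the side after it, as Ambra1 (182 genes before), Gm13889 (126 before), Depdc7 (20 before), Rcn1 (7 before), then Pax6, then Elp4 (1 gene after), Immp1l (2 after), Mpped2 (12 after), Scg5 (131 after), Aqr (141 after) and Eif2ak4 (192 after). The table lists 3704 genes on chromosome 2, including genes without protein. Of the members, 8 had start regions in the RefSeq promoter table. The starts of Elp4 and Immp1l lie 74 bases apart on opposite strands, so that both genes begin in the same window. This window is shown because these are the nearest neighbours of Pax6 and both were higher in Sey mutants. The window of Depdc7 is shown because Depdc7 had the largest difference of any member. Each runs 5' to 3' over 300 bases, 250 before and 50 after the start, at chr2:105904388-105904687 on the + strand for Immp1l and chr2:104742808-104743107 on the - strand for Depdc7, both in GRCm38.p6. Capitals mark matches to any of 4 motifs searched on both strands.
Immp1l: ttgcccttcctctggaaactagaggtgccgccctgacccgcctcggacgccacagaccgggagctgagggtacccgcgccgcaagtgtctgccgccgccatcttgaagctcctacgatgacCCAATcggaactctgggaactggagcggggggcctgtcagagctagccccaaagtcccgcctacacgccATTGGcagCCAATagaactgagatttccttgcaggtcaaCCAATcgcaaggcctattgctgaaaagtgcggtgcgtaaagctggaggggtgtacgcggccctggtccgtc
Depdc7: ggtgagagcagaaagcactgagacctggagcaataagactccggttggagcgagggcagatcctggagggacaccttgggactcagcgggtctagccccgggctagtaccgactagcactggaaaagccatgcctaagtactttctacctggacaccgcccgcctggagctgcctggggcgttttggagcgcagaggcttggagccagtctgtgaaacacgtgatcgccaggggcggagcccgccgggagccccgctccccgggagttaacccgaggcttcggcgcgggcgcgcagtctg
The motifs were the CCAAT box, the ETS site with the letters CCGGAAG, the NRF1 site and a palindromic paired homeodomain site. Among 32851 windows of this length in the table, 37.4% held the CCAAT box, 8.86% the ETS site, 4.6% the NRF1 site and 0.487% the paired homeodomain site. The Immp1l window held CCAAT at 4 places, which did not overlap, and the Depdc7 window held none of the 4 motifs. The Immp1l window had 21 CG dinucleotides and the Depdc7 window 22, against a median of 7 over all windows.

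Array medians lay between 6.03 and 6.07 in the Sey line, 6.25 and 6.26 in the Leca4 line and 6.11 and 6.18 in the Leca2 line. The columns appear to have been normalized per line, and each mutant is compared with its own littermates. Of 8 markers of the dorsal cortex, 7 were tested, with mean levels per array of 10.67 to 11.06 in Sey mutants and 11.36 to 11.44 in Sey controls. They were 11.39 to 11.69 in Leca4 mutants and 11.43 to 11.7 in Leca4 controls, and 11.38 to 11.56 in Leca2 mutants and 11.47 to 11.61 in Leca2 controls. In Sey 2 of the 7 were called higher and 4 lower, and in the Leca lines none was called. All 6 markers of the ventral telencephalon were called higher in Sey mutants, where their mean level was 10.08 to 10.65, against 6.85 to 7.34 in Sey controls. In the Leca4 line it was 7.6 to 8.08 in mutants and 7.85 to 8.67 in controls, and in the Leca2 line 6.95 to 8.3 and 6.93 to 7.41, with no marker called in either. Of 4 microglial markers, 2 were called higher in Leca4 mutants, where the mean level of the 4 was 7.9 to 8.01, against 7.49 to 7.72 in Leca4 controls. No measured marker of endothelium (4), meninges (2), choroid plexus (2) or erythroid cells (2) was called in any line. The part of other cell types in the differences below was not tested. In such bulk samples, fewer cells of a type and less RNA per cell cannot be told apart. Read from Xist and Y-linked genes, males made up 1 of 4 Sey mutants and 3 of 3 Sey controls, 2 of 3 Leca4 mutants and 3 of 4 Leca4 controls, and 2 of 4 Leca2 mutants and 0 of 3 Leca2 controls.

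A probe set was called where its adjusted p in a limma fit of all 29474 kept probe sets was under 0.05. In Sey mutants 8 of the 15 member probe sets were called, from 6 genes, 7 of them higher and 1 lower, while 14.6% of all probe sets were called in that comparison, 7.78% higher and 6.85% lower. In Leca4 mutants 6 were called, from 5 genes, 5 higher and 1 lower, while 3.77% of all were called, 2.13% higher and 1.64% lower. In Leca2 mutants 2 were called, both higher, from 2 genes, while 0.373% of all were called, 0.126% higher and 0.248% lower. The members were picked on these comparisons, so nothing is read from the counts. Of the 10 genes, 4 were called in 2 lines, 5 in 1 line and 1, Eif2ak4, in none, and no member was called in all 3. Over all genes with a kept set, 21.1% were called in Sey, 6.02% in Leca4 and 0.592% in Leca2. The share of all genes called in more than 1 line was not counted, so nothing is read from this split either. The median log2 change of the 15 was 0.35 in Sey, 0.15 in Leca4 and 0.01 in Leca2, against 0.00 over all probe sets in each. All mutant arrays lay beyond all control arrays for 9 of the 15 in Sey, 7 in Leca4 and 5 in Leca2, while the shares over all probe sets were 26.1% in Sey (13.8% above and 12.3% below), 13.5% in Leca4 (6.62% and 6.86%) and 7.06% in Leca2 (2.78% and 4.28%).

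**Figure D1:**
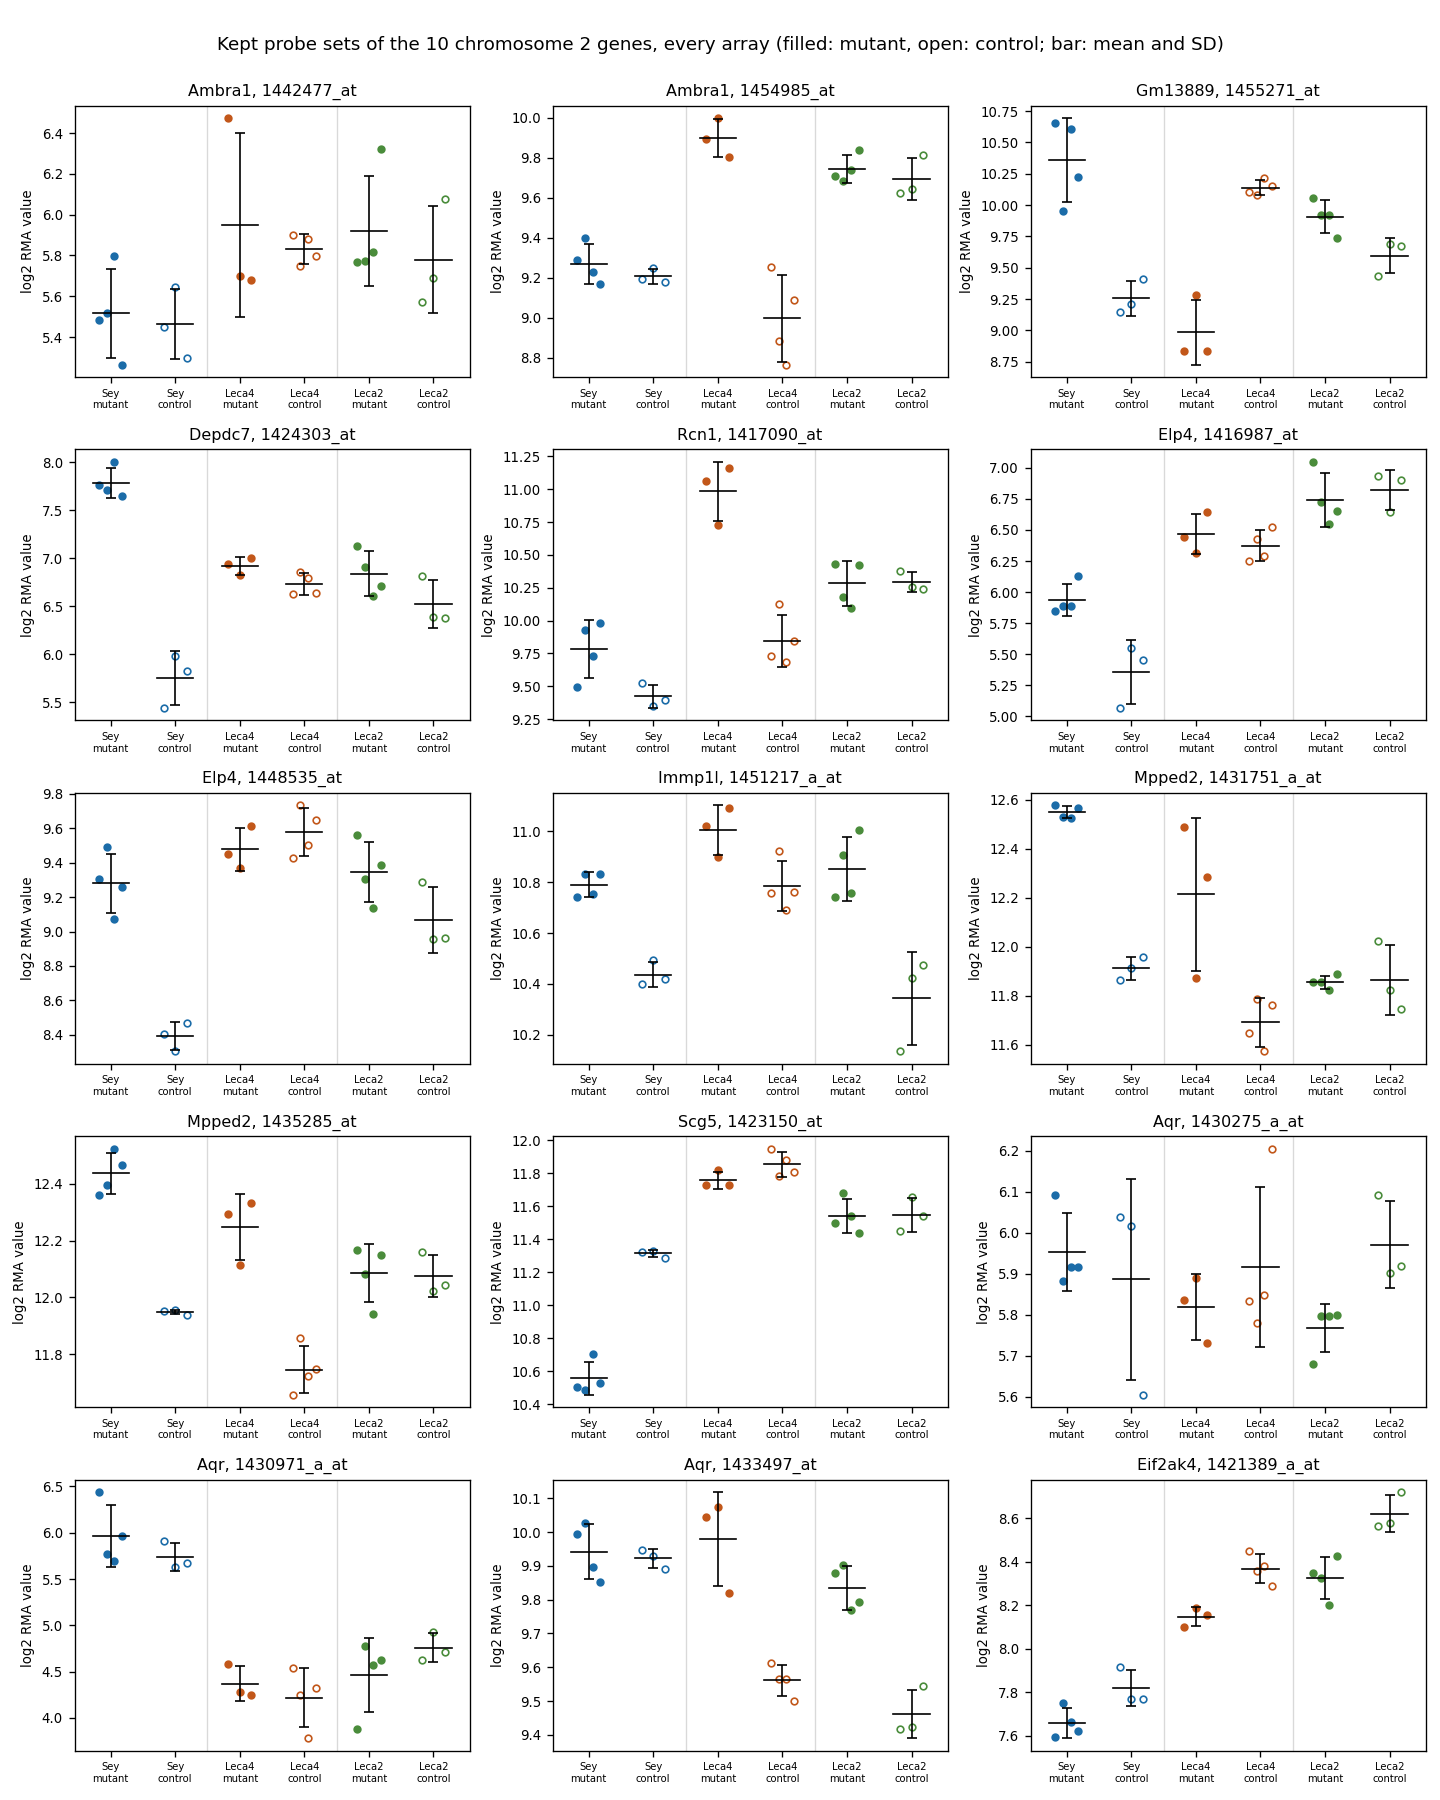
Each panel plots the log2 RMA value (vertical axis, not starting at 0) of 1 kept probe set in all 21 arrays, with mutants filled and controls open, and bars for the mean and SD of each group. Depdc7 is highest in the 4 Sey mutants, and Gm13889 is higher in Sey mutants and lower in Leca4 mutants than in their controls. In these deposited values Aqr 1433497_at is low only in the 2 groups of 129 S6 controls. The columns appear to have been normalized per line, so levels may not compare between lines.

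Elp4 encodes a subunit of Elongator, the complex that modifies wobble uridines of transfer RNAs, and both of its probe sets were higher in Sey mutants. Set 1448535_at read 9.30, 9.49, 9.07 and 9.26 in Sey mutants, against 8.40, 8.30 and 8.47 in Sey controls, a log2 change of 0.89 ± 0.11 (SE of the fit, here and below). Every mutant array lay above every control array, by a wide margin relative to the spread within each group. Set 1416987_at read 5.85, 5.89, 5.89 and 6.13 in Sey mutants and 5.07, 5.55 and 5.46 in Sey controls, a change of 0.58 ± 0.13. These values are close to the level of the filter, which lay between 5.37 and 5.6 over all arrays. In the Leca lines the groups overlapped for both sets. The change of 1448535_at was -0.10 ± 0.11 in Leca4 and 0.28 ± 0.11 in Leca2, and that of 1416987_at was 0.10 ± 0.13 and -0.08 ± 0.13.

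Immp1l, whose product belongs to the peptidase of the inner mitochondrial membrane, shares its start region with Elp4 (the window printed above). Its only probe set, 1451217_a_at, read 10.74, 10.83, 10.75 and 10.83 in Sey mutants, against 10.40, 10.49 and 10.42 in Sey controls, a log2 change of 0.35 ± 0.08. It read 10.74, 10.91, 10.76 and 11.01 in Leca2 mutants and 10.13, 10.43 and 10.47 in Leca2 controls, a change of 0.51 ± 0.08. The groups did not overlap in either line. In Leca4 mutants the values were 11.02, 10.90 and 11.09, against 10.76, 10.92, 10.69 and 10.76 in controls, a change of 0.22 ± 0.08 that was not called, and the groups overlapped. With a term for sex the Sey change was 0.29 and not called. The Leca2 call was lost without Leca2 control replicate 1 (change 0.40) and where only the groups compared were fitted. In Leca2 neither set of Elp4 was called. The difference between the genes was not tested.

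Mpped2 encodes a metallophosphoesterase domain protein of fetal brain. Both of its probe sets were higher in Sey and in Leca4 mutants, and by like amounts. Set 1435285_at read 12.36, 12.40, 12.52 and 12.47 in Sey mutants and 11.95, 11.96 and 11.94 in Sey controls, a log2 change of 0.49 ± 0.07. It read 12.29, 12.12 and 12.33 in Leca4 mutants, against 11.66, 11.86, 11.72 and 11.75 in Leca4 controls, a change of 0.50 ± 0.07. No array of these mutants fell into the range of its controls. Set 1431751_a_at gave 0.64 ± 0.10 in Sey, with 12.53 to 12.58 in mutants and 11.86 to 11.96 in controls. In Leca4 it gave 0.52 ± 0.10, where the mutants read 12.49, 11.87 and 12.28 and the controls 11.57 to 11.79, so that 1 mutant lay close to the controls. That call was lost where only the Leca4 groups were fitted. In the Leca2 line neither set differed by more than 0.01 between the group means, with 1435285_at at 11.94 to 12.17 in mutants and 12.02 to 12.16 in controls. The interval of 1 SE around the Leca2 change was ± 0.07 for this set.

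Rcn1, the nearest member on the other side of Pax6, encodes reticulocalbin, a calcium-binding protein of the endoplasmic reticulum. Set 1417090_at read 11.06, 10.73 and 11.16 in Leca4 mutants, against 9.73, 10.12, 9.69 and 9.85 in Leca4 controls, which is 2.2-fold higher in the mutants (log2 change 1.14 ± 0.13). The lowest mutant stood well above the highest control. In Sey it read 9.50, 9.93, 9.73 and 9.98 in mutants and 9.52, 9.35 and 9.39 in controls, a change of 0.36 ± 0.13 that was not called and in which 1 mutant lay within the controls. Without that array, Sey mutant replicate 1, the change was 0.46 and called. In Leca2 the change was -0.01 ± 0.13, with 10.10 to 10.43 in mutants and 10.24 to 10.38 in controls. The second set of Rcn1, 1447890_at, read 2.87 to 3.46 over all arrays, below the level of the filter, and carries no information on the change.

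Depdc7, which encodes a DEP domain protein, was 4.08-fold higher in Sey mutants. Its only set, 1424303_at, read 7.76, 7.71, 8.01 and 7.65 in Sey mutants and 5.44, 5.98 and 5.83 in Sey controls, a log2 change of 2.03 ± 0.14. The filter lay at 5.37 to 5.42 on the arrays of that line, close to the controls. In the Leca lines its groups overlapped. It read 6.94, 6.82 and 7.005 in Leca4 mutants and 6.63, 6.86, 6.79 and 6.64 in Leca4 controls (change 0.19 ± 0.14). In Leca2 mutants it read 7.13, 6.91, 6.60 and 6.71, against 6.81, 6.38 and 6.38 in Leca2 controls (change 0.31 ± 0.14).

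Gm13889, a gene known by its predicted-gene name, differed in opposite directions in Sey and Leca4. Set 1455271_at read 10.65, 9.95, 10.61 and 10.23 in Sey mutants and 9.14, 9.21 and 9.41 in Sey controls, 2.15-fold higher in mutants (log2 change 1.10 ± 0.14). In Leca4 it read 8.83, 9.28 and 8.84 in mutants, against 10.11, 10.08, 10.21 and 10.15 in controls, 2.22-fold lower in mutants (change -1.15 ± 0.14). In Leca2 it read 10.06, 9.92, 9.92 and 9.73 in mutants and 9.43, 9.69 and 9.67 in controls, a change of 0.31 ± 0.14 that was not called. In none of the 3 lines did the groups overlap, and the Leca4 mutants were lower while the other mutants were higher. The second set, 1456206_at, read 3.73 to 4.83 over all arrays and stayed below the level of the filter. The median change of the 6 ventral markers was 3.45 in Sey, -0.46 in Leca4 and 0.50 in Leca2, and their part in the difference of Gm13889 was not tested.

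Ambra1 encodes an adaptor that acts in autophagy and in the degradation of D-type cyclins. Only 1 of its 2 kept sets was called, and only in Leca4. Set 1454985_at read 9.89, 9.997 and 9.80 in Leca4 mutants, against 9.26, 8.88, 8.77 and 9.09 in Leca4 controls, 1.87-fold higher in mutants (log2 change 0.90 ± 0.09). In the other 129 S6 line it read 9.71, 9.68, 9.74 and 9.84 in Leca2 mutants and 9.63, 9.64 and 9.81 in Leca2 controls (change 0.05 ± 0.09). The Leca4 controls were thus the low group, and the Leca4 mutants were close to both groups of the Leca2 line. In the Sey line the set read 9.17 to 9.40 in mutants and 9.18 to 9.25 in controls (change 0.06 ± 0.09). For set 1442477_at the Leca4 groups overlapped (0.12 ± 0.18), and its values of 5.26 to 6.47 came close to the filter. The third set, 1458150_at, was left out as low, at 3.53 to 4.12. Its group means differed by 0.09 in Sey, 0.225 in Leca4 and -0.30 in Leca2. In Leca4 it read 3.86 to 4.07 in mutants and 3.68 to 3.79 in controls, and in Leca2 3.53 to 3.87 and 3.95 to 4.12. A change of transcript amount and a sequence difference under 1 set cannot be told apart here, since 1442477_at and 1458150_at were near background.

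Scg5 encodes 7B2, a chaperone of the prohormone convertase PC2 in neuroendocrine cells and neurons, and was the only member called lower in Sey mutants. Set 1423150_at read 10.50, 10.49, 10.70 and 10.53 in Sey mutants and 11.32, 11.33 and 11.29 in Sey controls, 1.69-fold lower in mutants (log2 change -0.76 ± 0.07). In the Leca lines the groups overlapped, with changes of -0.10 ± 0.07 in Leca4 and -0.01 ± 0.07 in Leca2. The Leca4 values were 11.73, 11.82 and 11.73 in mutants and 11.95, 11.78, 11.88 and 11.81 in controls.

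Aqr encodes Aquarius, an intron-binding helicase of the spliceosome, and is represented by 5 probe sets. Set 1433497_at read 10.04, 10.07 and 9.82 in Leca4 mutants, against 9.61, 9.56, 9.57 and 9.50 in Leca4 controls (log2 change 0.42 ± 0.06). It read 9.88, 9.90, 9.77 and 9.79 in Leca2 mutants and 9.42, 9.42 and 9.54 in Leca2 controls (change 0.37 ± 0.06). In the Sey line it read 9.99, 10.03, 9.90 and 9.85 in mutants and 9.95, 9.93 and 9.89 in controls (change 0.02 ± 0.06). Of the 6 groups, the 2 control groups of 129 S6 were low in the deposited values and the other 4 overlapped. After quantile normalization the Leca4 and Leca2 mutants had means of 9.82 and 9.78, and their controls 9.40 and 9.41. Sey mutants and controls then stood higher, at 10.15 and 10.14. The other sets did not show the pattern of 1433497_at. Set 1430275_a_at changed by -0.10 ± 0.10 in Leca4 and by -0.20 ± 0.10 in Leca2, where the mutants read 5.68 to 5.80 and the controls 5.90 to 6.09. Set 1430971_a_at changed by 0.15 ± 0.20 in Leca4 and -0.29 ± 0.20 in Leca2, but it lay below the level of the filter on every array of both Leca lines, at 3.78 to 4.93. Sets 1430972_x_at and 1452448_at were left out as low. The Leca2 call of 1433497_at was lost without Leca2 control replicate 1 (change 0.35) or 2 (change 0.36) and where only the groups compared were fitted. A change of transcript amount and a sequence difference under 1 set cannot be told apart from these values, since the sets that disagree were near background.

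**Figure D2:**
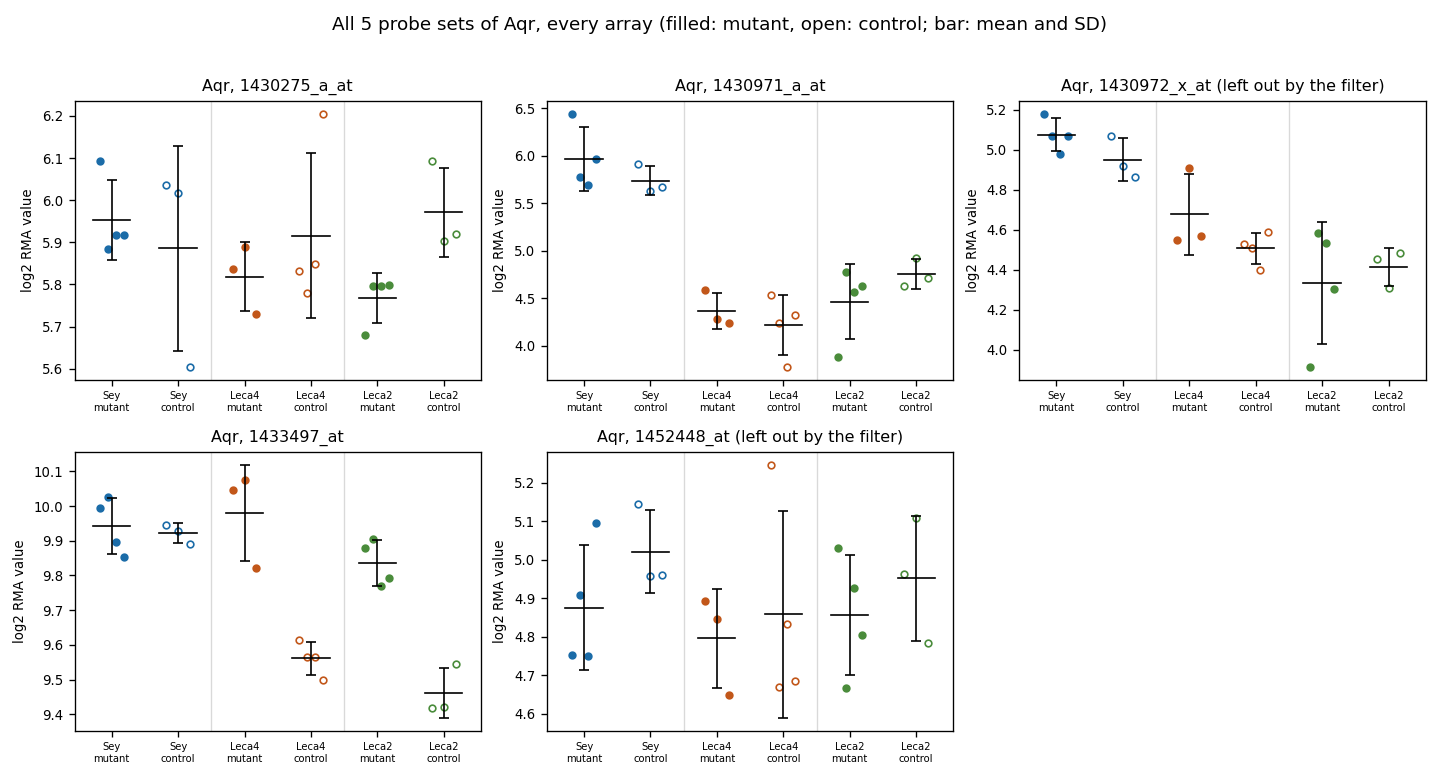
Each panel plots the log2 RMA value (vertical axis, not starting at 0) of 1 of the 5 probe sets of Aqr in all 21 arrays, mutants filled and controls open, with the mean and SD of each group. Mutants and controls of both Leca lines are apart in 1433497_at, at 9.77 to 10.07 against 9.42 to 9.61, and 1430971_a_at is higher in both groups of the Sey line than in any Leca group.

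Eif2ak4 encodes GCN2, the kinase that phosphorylates eIF2 when amino acids are scarce. Set 1421389_a_at was lower in all 3 mutants without being called in any. It read 7.59, 7.75, 7.66 and 7.62 in Sey mutants and 7.92, 7.77 and 7.77 in Sey controls (log2 change -0.16 ± 0.06). It read 8.10, 8.19 and 8.15 in Leca4 mutants and 8.45, 8.36, 8.38 and 8.29 in Leca4 controls (change -0.22 ± 0.06). In Leca2 it read 8.35, 8.33, 8.20 and 8.43 in mutants, against 8.56, 8.58 and 8.72 in controls (change -0.30 ± 0.06). All mutant arrays lay below all control arrays in each line, and the differences were small. The Leca2 change was called under 5 other settings (the stricter filter, quantile normalization, array weights, an adjusted p under 0.10 and 1 set per gene) and without Leca2 mutant replicate 4 (change -0.33). The Leca4 change was called with the stricter filter, an adjusted p under 0.10, 1 set per gene and without Leca2 mutant replicate 3 (-0.22 in each). The Sey change was called with quantile normalization (-0.19) and array weights (-0.17). The second set, 1443235_at, was left out as low, at 4.58 to 5.22, and its group means differed by 0.12 in Sey, -0.19 in Leca4 and -0.27 in Leca2.

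**Figure D3:**
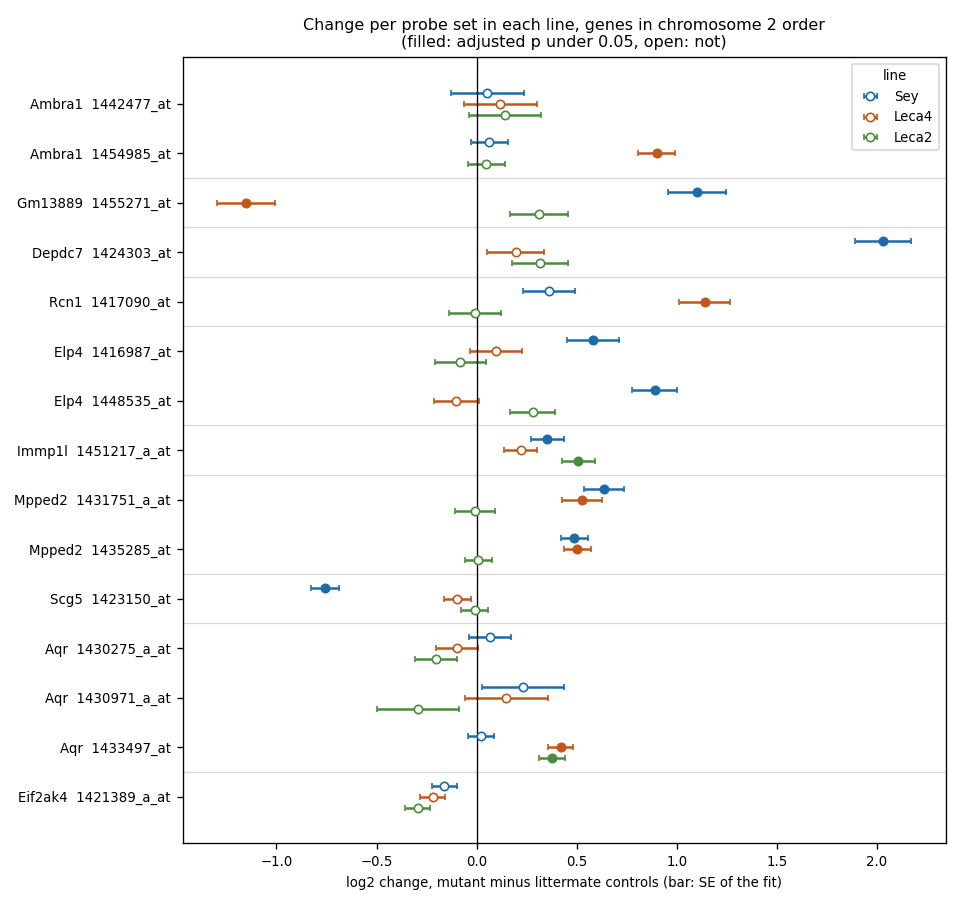
The log2 change of mutants over littermate controls (horizontal axis, with the SE of the fit) is plotted for the 15 kept probe sets in chromosome order, filled where the adjusted p was under 0.05. Both sets of Mpped2 lie close together in Leca4 (0.52 and 0.50), both sets of Elp4 are called in Sey but differ in size (0.89 and 0.58), and the sets of Ambra1 in Leca4 and of Aqr in Leca4 and Leca2 lie further apart.

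Of the 4 members with more than 1 kept set, Elp4 and Mpped2 had both sets called in Sey and Mpped2 also in Leca4. Ambra1 and Aqr had 1 set called and the rest not in Leca4, and Aqr also in Leca2. The largest minus the smallest log2 change among the sets of a gene was 0.78 for Ambra1 and 0.52 for Aqr in Leca4, and 0.67 for Aqr in Leca2. The lowest Aqr change in Leca2 was that of 1430971_a_at (-0.29), which lay below the level of the filter on every Leca array. The other kept sets of Aqr changed by 0.37 and -0.20 there. It was 0.31 for Elp4 in Sey and 0.36 in Leca2, where neither set was called. For Mpped2 it was 0.15 in Sey and 0.02 in Leca4. Over 6521 genes with 2 or more kept sets its median was 0.15 in Sey, 0.14 in Leca4 and 0.12 in Leca2, so the sets of Elp4 were further apart than in most genes in both lines. Partial calls are common on this array. Among genes with at least 1 called set, 74.2% in Sey, 83.2% in Leca4 and 77.8% in Leca2 had another that was not called. The median spread of genes with a called set was 0.25 in Sey, 0.35 in Leca4 and 0.49 in Leca2.

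Pax6 itself, measured by the set with the highest mean (1419271_at), read 12.02, 11.86 and 12.20 in Leca4 mutants and 11.52, 11.68, 11.41 and 11.55 in Leca4 controls. In Leca2 it read 12.20, 12.08, 12.04 and 12.26 in mutants and 11.31, 11.12 and 11.22 in controls, and in Sey 11.18, 11.34, 10.94 and 11.16 in mutants and 10.60, 10.63 and 10.55 in controls. In this set every mutant array lay above its controls in each line. The sets of Pax6 did not agree in Leca4, where the other 3 kept sets were not called and their groups overlapped, with log2 changes of 0.07 ± 0.07 (1437816_at), 0.17 ± 0.15 (1452526_a_at) and 0.16 ± 0.08 (1456342_at), against 0.49 ± 0.09 for 1419271_at. For 1452526_a_at 1 Leca4 mutant read 7.92, below all controls (8.01 to 8.18). In Sey the 3 sets changed by 0.19 ± 0.07 (not called), 0.60 ± 0.15 and 0.57 ± 0.08, and in Leca2 by 0.42 ± 0.07, 0.86 ± 0.15 and 0.34 ± 0.08 (not called), with all mutants above all controls.

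Comparing the controls of the lines shows how the members stood on the different backgrounds without a mutation. The control arrays also entered the comparisons that chose the members, so the differences are a description, given without p-values. Background, line and normalization cannot be told apart here. Between Sey controls and the 129 S6 controls 69.5% of all probe sets were called by limma, 12.1% higher and 57.4% lower, with a median log2 difference of -0.27. After quantile normalization across all arrays 57.5% were called, and 46.1% of those were higher, against 17.4% of those called in the deposited values, with a median of -0.03. Of the 15 member sets 9 were called in the deposited values, 2 higher and 7 lower, and 12 after quantile normalization, 6 in each direction. Aqr 1430971_a_at is among those called higher under both scalings. It passed the filter through the Sey arrays alone, so its call here is partly built in by the filter and nothing is read from it. The members' split between higher and lower thus moved with the scaling, as that of all sets did. Elp4 was lower in Sey controls than in 129 S6 controls in both sets under both scalings. The difference was -0.93 ± 0.10 for 1448535_at and -1.24 ± 0.12 for 1416987_at, and -0.61 ± 0.10 and -1.09 ± 0.12 after quantile normalization. Depdc7 differed by -0.88 ± 0.13 and by -0.71 ± 0.13 after quantile normalization. Aqr 1433497_at was higher in Sey controls, by 0.41 ± 0.06 and by 0.74 ± 0.06 after quantile normalization. Immp1l (-0.13) and Ambra1 1454985_at (-0.14) changed sign with the scaling, at 0.18 and 0.20 after quantile normalization.

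Both Leca lines are labelled 129 S6, and their controls still differed, with 42.4% of all probe sets called by limma between Leca2 and Leca4 controls, 8.81% higher and 33.6% lower, at a median of -0.13. Of the member sets 10 were called, 6 higher and 4 lower. Among those called higher is Aqr 1430971_a_at, which lay below the level of the filter on every array of both Leca lines. After quantile normalization 31.3% of all sets were called, and 44.6% of those were higher, against 20.8% of those called in the deposited values. The median was then -0.02, and 11 member sets were called, 7 higher and 4 lower. Ambra1 1454985_at was higher in Leca2 controls than in Leca4 controls by 0.70 ± 0.09 and by 0.79 ± 0.09 after quantile normalization. The sets of Elp4 differed in opposite directions, by -0.51 ± 0.11 for 1448535_at and 0.45 ± 0.13 for 1416987_at, and did so under both scalings. Aqr 1433497_at was not called (-0.10 ± 0.06).

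Levels of Leca mutants were also set against the Sey controls, after quantile normalization. Of the 6 member sets called in Leca4, 5 had a mutant mean nearer to Sey controls than to their own littermates, and of the 2 called in Leca2, 2. Over all called probe sets the share was 46.7% in Leca4 (518 of 1110) and 68.2% in Leca2 (75 of 110). The member sets were called in the comparisons that chose the members, so their counts are a description. Some mutant means lay beyond those of Sey controls. In Leca4 these were Gm13889 1455271_at (8.83 against 9.48) and Ambra1 1454985_at (9.737 against 9.435). In Leca2 it was Immp1l (10.81 against 10.64). Both sets of Mpped2 in Leca4 were level with Sey controls. For Aqr 1433497_at the quantile normalized means were 9.82 in Leca4 mutants and 9.78 in Leca2 mutants, 9.40 and 9.41 in their controls, and 10.14 in Sey controls. In these values the Leca mutants therefore lay about midway between their littermates and the Sey controls. In the deposited values they were level with the Sey line.

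The stretch around Pax6 was then read gene by gene, counting a gene as called where any of its kept sets was. Within 100 genes on either side of Pax6, 41 genes were measured, 5 of them members. In Sey 14 of the 41 were called (34.1%), against 21.1% of the genes elsewhere. In Leca4 10 were called (24.4%, against 5.96% elsewhere), and in Leca2 5 (12.2%, against 0.55% elsewhere). Over all genes with a kept set the shares were 21.1%, 6.02% and 0.592%. The members in the window account for 4 of the 14 in Sey, 2 of the 10 in Leca4 and 1 of the 5 in Leca2. The members were listed from such counts, which are therefore a description. Outside the list, the largest changes in the window were those of Paupar, a long noncoding transcript next to Pax6, in Sey (1.90 ± 0.19) and Leca2 (1.48 ± 0.19) and of Cd44, the hyaluronan receptor gene, in Leca4 (2.60 ± 0.15). Next in size were Slc1a2, a glial glutamate transporter gene, at 0.69 ± 0.23 in Sey and 1.45 ± 0.23 in Leca2, and 2310047K21Rik, 18 genes before Pax6, at 0.82 ± 0.12 in Leca4 and 0.83 ± 0.12 in Leca2. Pax6os1, antisense to Pax6, changed by 0.75 ± 0.15 in Leca4, and Kif18a, a kinesin gene of mitosis, by 0.56 ± 0.14 in Sey.

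On chromosome 2 as a whole 1118 genes were measured, 8.07% of all. They held 29.3% of the genes called in Leca2 (24 genes), 14.3% of those in Leca4 (119 genes) and 9.97% of those in Sey (292 genes). In Leca2 2.15% of the genes of chromosome 2 were called, while the other 19 chromosomes ranged from 0% to 0.992%. In Leca4 the share was 10.6%, against 3.09% to 8% on the others, and in Sey 26.1%, against 14.6% to 24.6%. The share was not even along the chromosome. In the bin of 100 genes around Pax6 4 of 25 genes (16%) were called in Leca2, and 8 of 40 (20%) in the bin centred 400 genes after Pax6. In Leca4 the bin centred 100 genes before Pax6 had 9 of 29 called (31%), and the bins centred 500 and 600 genes after it had 14 of 48 (29.2%) and 7 of 25 (28%), with 2 of 47 (4.26%) at 300 genes. In Sey 10 of 25 genes were called in the bin around Pax6 (40%), and the bins centred 800 and 900 genes before it were higher still, at 45.9% and 52.4%. So was the bin centred 1100 genes before it, with 9 of 19 called (47.4%).

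**Figure D4:**
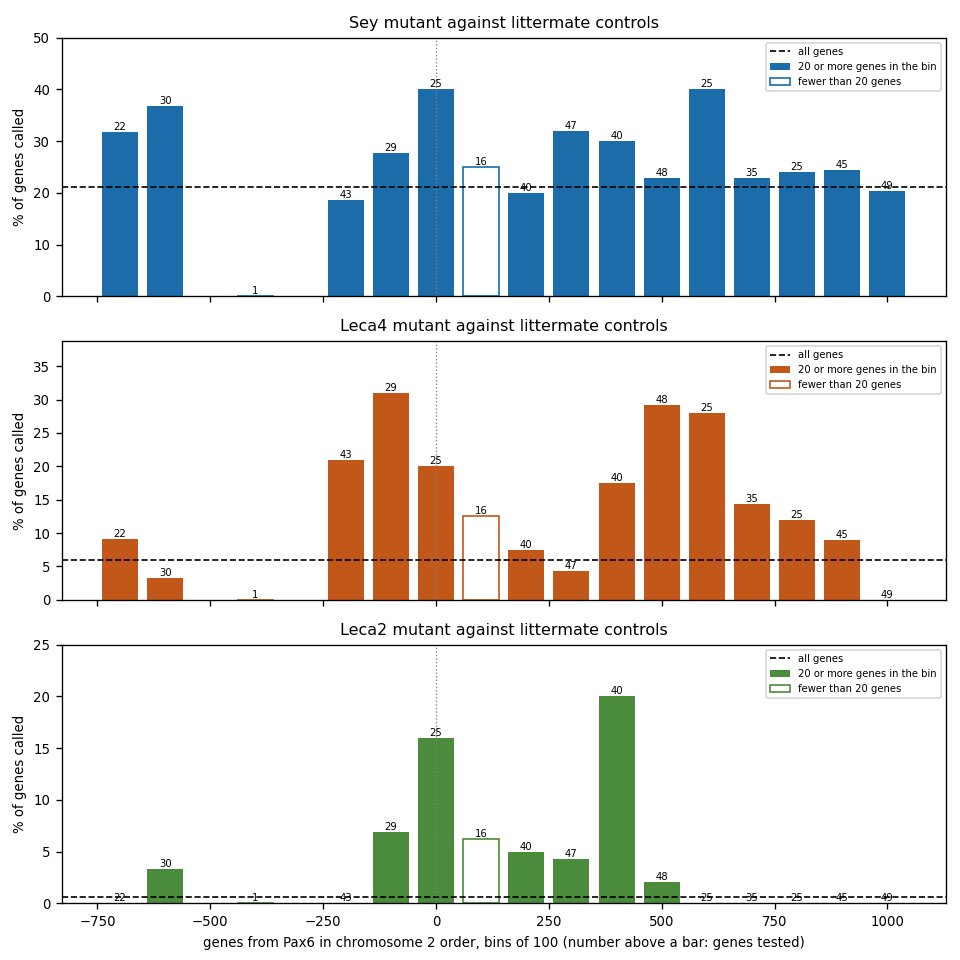
The share of genes called (vertical axis, percent) is plotted by order on chromosome 2 in bins of 100 genes of the RefSeq table (horizontal axis, distance from Pax6 in genes), with the number of genes measured above each bar, open bars for fewer than 20 genes and the share over all genes as a dashed line. Leca4 and Leca2 bars stand above the line around Pax6 and have a second peak, at 500 and 600 genes after it in Leca4 (29.2% and 28%) and at 400 in Leca2 (20%). Only bins from 700 genes before Pax6 to 1000 genes after it are drawn. Sey bins further before it that were higher than the bin at Pax6 are thus not shown.

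For each member, the 3 genes whose values were most like it were found by Pearson's r over the 21 arrays after the mean of each line was taken off. The arrays share these lines and mutations, so r is a description. Of the 30 places so filled, 7 went to genes on chromosome 2, with 2310047K21Rik counted for both Immp1l and Aqr. Of all measured genes 8.07% lay on that chromosome. For Immp1l all 3 did, namely Pax6 (r = 0.90), Bcl2l11 (r = 0.884) and 2310047K21Rik (r = 0.857). For Aqr 1433497_at the first was 2310047K21Rik (r = 0.841). For Depdc7 (Slc25a13, r = 0.985), Scg5 (Rbm24, r = 0.973), Rcn1 (Eya4, r = 0.958), Mpped2 (Crabp1, r = 0.956) and Elp4 (Mdm1, r = 0.946) the first lay on other chromosomes, as it did for Ambra1 (Fn1, r = 0.916), Gm13889 (Sall3, r = 0.903) and Eif2ak4 (Lama1, r = 0.838).

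Genes related to the members in function or sequence were tested in the same fit, each by its kept set with the highest mean. These lists were chosen with earlier results of these data known, so the adjusted p-values below are a description. Over all probe sets 14.6% were called in Sey, 3.77% in Leca4 and 0.373% in Leca2. In Sey 1 called gene in a list of 4 or 5 is near that share, so nothing is read from such a count. Of 4 measured subunits of Elongator other than Elp4, 1 was called in Sey, Elp6 (0.26 ± 0.07; adjusted p = 0.0213 in limma), and none in Leca4 or Leca2. None of the 4 relatives of Rcn1 (Rcn2, Rcn3, Calu and Sdf4) was called in any line, with changes between -0.07 and 0.12. Mpped1, the paralogue of Mpped2, was lower in Sey mutants by contrast (-1.12 ± 0.13; adjusted p = 6e-06 in limma) and was not called in Leca4 (-0.29 ± 0.13) or Leca2 (-0.09 ± 0.13). Of 4 measured granin genes, relatives of Scg5, Chga was lower in Sey mutants (-0.47 ± 0.09; adjusted p = 0.000981 in limma) and the others were not called in any line. The other 3 eIF2 kinases were not called in any line, and of 5 target genes of eIF2 phosphorylation only Asns was, in Sey (-0.20 ± 0.06; adjusted p = 0.0402 in limma). Of 4 genes of the complex that contains Aqr, Ppie was called in Sey (0.22 ± 0.06; adjusted p = 0.0201 in limma) and none in the Leca lines, and of 5 autophagy genes none was called in any line. Neighbours of Pax6 that are not members but belong to the matching human region lie in the stretch from which the members were chosen, and are given without p-values. Of the 5 measured, Dnajc24 (0.28 ± 0.08), Kif18a (0.56 ± 0.14) and Lgr4 (0.53 ± 0.13) were called higher in Sey, Bdnf (0.03 ± 0.09) and Lin7c (-0.20 ± 0.08) were not, and none was called in Leca4 or Leca2.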

How the data were processed

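Total RNA from rostral cerebral cortex at embryonic day 14 was purified (RNeasy Micro, with DNase) and amplified (MessageAmp Premier), per the labels. The authors deposited log2 values, 1 per probe set and array, and RMA is named in the submitters' processing notes. Neither its version nor a genome build is stated in the sources used here. All 21 columns were used and no value was missing. The number of arrays limits the precision.

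The array has 45101 probe sets. Of these 64 are controls, 9160 have no gene symbol, 932 have several and 34945 have 1, of which 34741 matched the RefSeq table of GRCm38.p6 by gene ID. Annotation dates from the array platform. A set was kept if it exceeded, on 3 or more arrays, the 40th percentile of the non-control sets of the array. The 6 groups were fitted together in limma 3.58.1 (R 4.3.3; lmFit and eBayes, 15 residual and 3.21 prior degrees of freedom), with Benjamini-Hochberg adjustment per comparison over the 29474 kept sets. Tests are two-sided. The fit was also run on simulated data with independent normal noise and no structure by sex or litter. Such data do not test the calls made on these arrays. Every member was named, with up to 3 other called genes per line within 100 genes of Pax6, 3 genes most like each member, Pax6 and fixed lists of related genes. Members and lists were chosen with earlier results of these data known. Alternatives were another filter, normalization, sample choice, replicate block, variance model, weights, threshold, 1 set per gene, a term for sex, other windows and leaving out each array.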

Additional observations from a re-analysis of the deposited data

Results flagged for a closer look

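The change of Gm13889 1455271_at in Sey exceeded that in Leca4 by 2.25 on the log2 scale, and the change in Leca2 exceeded that in Leca4 by 1.46. All Leca4 mutants were below their controls and all mutants of the other lines above theirs, and the difference between lines was not tested.

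A sample far from the other 3 of its group was found in 5 of 45 groups of 4 arrays by Dixon's test, which chance gives in about 1 of 20 groups. Elp4 1416987_at read 6.13 in Sey mutant replicate 4 and 5.85 to 5.89 in the others. Ambra1 1442477_at read 6.32 in Leca2 mutant replicate 4 and 5.77 to 5.82 in the others. Aqr 1430275_a_at read 6.09 in Sey mutant replicate 1 (others 5.88 to 5.92), 5.68 in Leca2 mutant replicate 1 (others 5.80) and 6.20 in Leca4 control replicate 4 (others 5.78 to 5.85). All of these sets are near the level of the filter.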

How the results depend on the processing

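The number of member sets called was within 1.5 times of 8 in Sey and 6 in Leca4 under every alternative, and of 9 and 10 in the 2 control comparisons. In Leca2 it was 2, and 0 where only the groups compared were fitted. Leaving out 1 array gave 8 to 9 in Sey, 6 to 7 in Leca4, 0 to 3 in Leca2 (0 without Leca2 control replicate 1 and 1 without replicate 2), 9 to 11 between Sey and 129 S6 controls and 9 to 11 between Leca2 and Leca4 controls. Called genes near Pax6 were 11 to 16 of the main 14 in Sey, 7 to 12 of 10 in Leca4 and 4 to 6 of 5 in Leca2 when 1 array was left out. With array weights they were 22 in Sey, and with only the groups compared 1 in Leca2. Windows of 200 genes gave 29, 22 and 8 of 109 measured genes in Sey, Leca4 and Leca2 (26.6%, 20.2% and 7.34%). A window of 50 gave 10, 5 and 4 of 26 (38.5%, 19.2% and 15.4%). In Sey and Leca2 the share thus fell as the window widened. Members with sets that disagreed numbered 0 in Sey, 2 in Leca4 and 1 in Leca2. Without the filter they were 1 in Sey and 4 in Leca4, and with the 60th percentile or 1 set per gene, which leave fewer sets, 0 in Leca4 and Leca2. In Leca2 the number was 0 with only the groups compared and 0 to 1 when 1 array was left out, against 0 to 0 in Sey and 2 to 2 in Leca4. Where no reason is given, the cause was not tested. In the comparison of Sey and 129 S6 controls, Immp1l (0.18) and Ambra1 1454985_at (0.20) reversed under quantile normalization. Counts of member sets nearer to Sey controls were the same in the deposited values. Same-numbered mutants and controls correlated between -0.338 and 0.447 in their deviations. In Leca2 the values were 0.447, -0.058 and 0.251 for replicates 1, 2 and 3. With so few arrays per group these values cannot show whether the numbers pair the samples. With the replicate block the member sets called stayed at 8 in Sey, 6 in Leca4 and 2 in Leca2. Of 1413 changes of a member in a mutant under an alternative, 16 gained and 7 lost a call. No change that was called in the main fit or the alternative reversed. Reversals of changes called in neither were not counted.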

Other observations

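Aqr 1430971_a_at differed between lines rather than between mutants and littermates. It read 5.69 to 6.44 in Sey mutants and 5.63 to 5.91 in Sey controls, while Leca4 mutants read 4.24 to 4.58, Leca4 controls 3.78 to 4.54, Leca2 mutants 3.88 to 4.78 and Leca2 controls 4.63 to 4.93. Every Sey array was above the level of the filter and every Leca array below it. The set was kept through the Sey arrays alone, so its difference between lines is a description. The set 1430972_x_at, also of Aqr, read 4.86 to 5.18 on the arrays of the Sey line and 3.92 to 4.91 on those of the Leca lines.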
